A study of Rattus norvegicus with 16 samples.

Results

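The m6A-circRNA microarrays measured the circular RNAs (circRNAs) of the lumbar spinal cord in 2 fractions. Of the 14145 circRNA probes, 312 (2.21%) met a detection rule meant for circRNAs found mainly in the modified fraction. That name describes the aim of the rule, and 88 of the 312 had the unmodified fraction detected on at least 4 of the 8 arrays as well. RNA of each rat was split with an anti-m6A antibody into the bound, modified RNA (IP) and the unmodified RNA left in the supernatant (SUP). Both were treated with RNase R, labeled with Cy5 (IP) and Cy3 (SUP) and hybridized together on 1 array per rat. A channel counted as detected where the scanner software marked the spot as well above background and not as a non-uniform outlier. The 312 circRNAs were chosen by these calls alone and had IP detected on at least 4 of the 8 arrays, but IP and SUP detected together on fewer than 4 arrays. They were 2.42% of the 12893 circRNAs with IP detected on at least 4 arrays, and the other 12581 had both fractions on at least 4.

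The rats were adult Sprague-Dawley males. The 4 rats of the MT group (morphine tolerant) received morphine hydrochloride intrathecally, 10 μg in 10 μl, morning and evening for 7 days. The 4 rats of the NS group received 10 μl of normal saline on the same schedule. The groups shared strain, sex and injection schedule, and RNA was taken from the whole lumbar enlargement on the morning after these days, following a further injection. Neurons and glia were therefore measured together, and a change in the cells that hold a circRNA cannot be told apart from a change in its amount per cell. The array held no probes for linear marker transcripts of the tissue, so the tissue label was not checked.

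CircRNAs are closed loops, made mostly by back-splicing of exons from protein-coding host genes. They have no free ends, so RNase R, an exonuclease that degrades linear RNA, leaves them largely intact. The N6-methyladenosine mark is set on RNA by a methyltransferase complex around METTL3 and METTL14, removed by the demethylases FTO and ALKBH5, and bound by reader proteins of the YTH family. In circRNAs it is known to affect nuclear export, decay and cap-independent translation. Neural tissue is known to be rich in circRNAs.

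SUP was detected on no array for 74 of the 312 circRNAs and on 1 to 3 arrays for 150. For the remaining 88, SUP was detected on at least 4 arrays, but not often enough on the arrays where IP was. IP was detected on more arrays than SUP for 248 circRNAs, on as many for 16 and on fewer for 48. IP itself was detected on all 8 arrays for 55 circRNAs, on 5 to 7 arrays for 170 and on 4 arrays for 87. Only 18 circRNAs had IP on all 8 arrays and SUP on none. A weaker mark of the scanner software, a signal positive and significantly above its background, was set for SUP on at least 4 arrays in 308 of the 312 circRNAs and on all 8 arrays in 213. SUP was therefore a dim signal in most of these circRNAs, and "not detected" below means not well above background. The opposite rule, SUP on at least 4 arrays and both fractions together on fewer than 4, chose 766 circRNAs, of which the same 88 were shared.

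**Figure D1:**
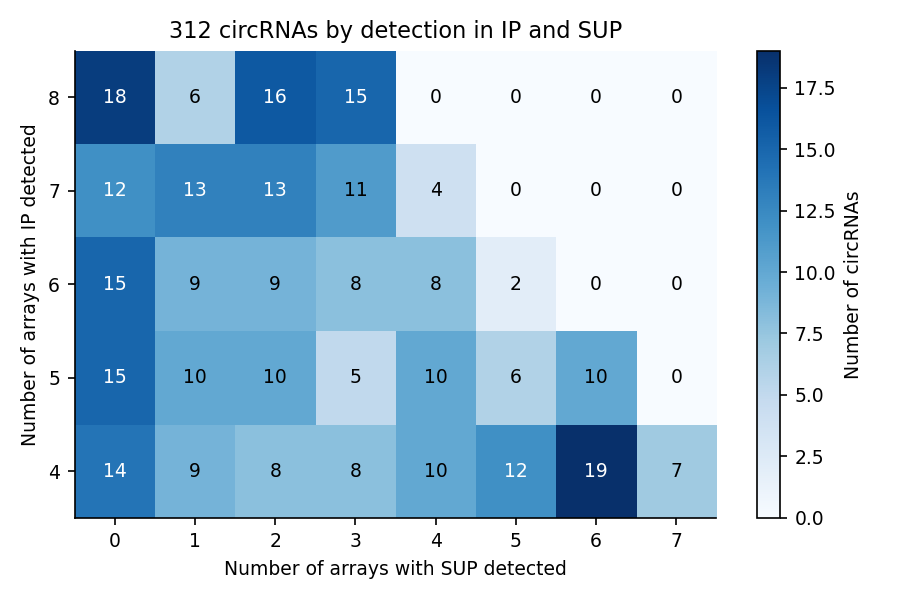
Number of circRNAs (colour and printed count) by the number of arrays with SUP detected (horizontal) and with IP detected (vertical), over 8 arrays. The 18 circRNAs with IP on 8 and SUP on 0 arrays are at the upper left, and the 88 with SUP on at least 4 arrays lie in the 4 right-hand columns.

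The 98 circRNAs just inside the threshold, with both fractions on 3 arrays, had median log2 intensities of 5.50 in IP and 5.72 in SUP and a median m6A level, IP as a percentage of IP and SUP, of 46.7%. The 226 just outside, with both on exactly 4 arrays, had 5.45, 6.53 and 32.7%. The probe ASCRPR011324 was just inside, with IP on 7 arrays, SUP on 4 and mean log2 intensities of 5.57 in IP and 5.55 in SUP. The probe ASCRPR001833 was just outside, with IP on 4 arrays, SUP on 8 and mean log2 intensities of 5.55 in IP and 6.84 in SUP.

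The arrays differed in how many of the 312 circRNAs they detected in either fraction. IP was detected for 230, 186, 268 and 141 circRNAs in rats MT1 to MT4, and for 221, 219, 279 and 251 in rats NS1 to NS4. MT4 was the lowest, and it was also the lowest over all probes, with 11832 of 14145 detected in IP against 12599 to 13119 on the other arrays. SUP was detected for 177, 54, 136 and 48 circRNAs in MT1 to MT4, and for 150, 118, 29 and 39 in NS1 to NS4. The arrays of MT1, MT3, NS1 and NS2 were the highest here, and the same 4 arrays detected the most probes of all in SUP, 13318 to 13609 against 12767 to 13036 on the other 4. Whether the overall brightness of an array set these counts was not tested.

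Detection in IP alone was found for 103, 159, 158 and 128 circRNAs in MT1 to MT4 and for 125, 148, 255 and 219 in NS1 to NS4. The mean of the MT rats was 137 ± 26.8 and that of the NS rats 186.75 ± 60.6 (SD, n = 4 each), and the groups overlapped. Both fractions were detected together for as few as 13 circRNAs in MT4 and as many as 127 in MT1. Neither fraction was detected for 18 circRNAs in MT3 and for up to 136 in MT4.

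**Figure D2:**
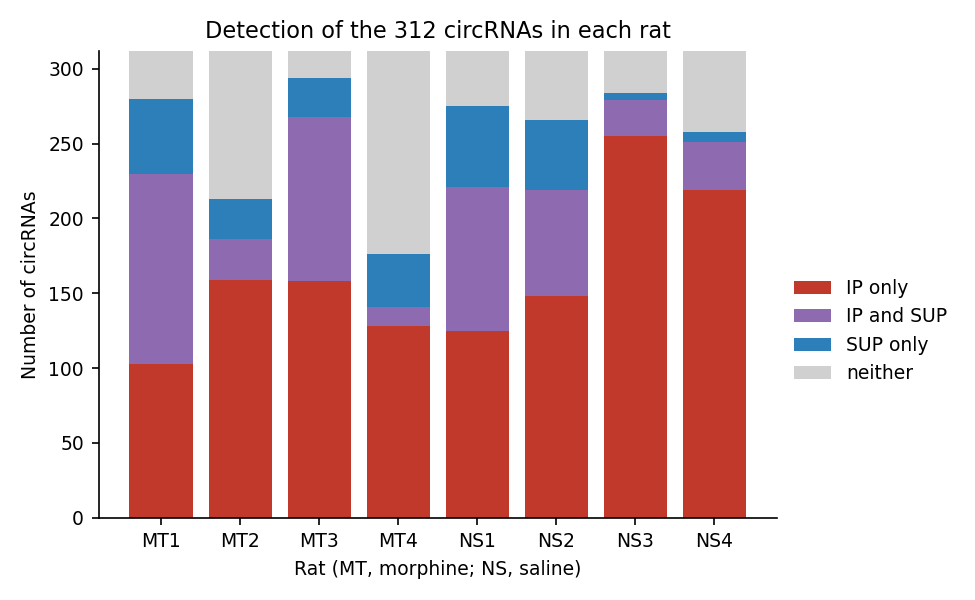
Number of the 312 circRNAs detected in IP only, in both fractions, in SUP only and in neither, for each of the 4 MT and 4 NS rats. Detection in IP only ranged from 103 (MT1) to 255 (NS3), and MT4 had the most with neither (136).

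By circRNA, IP was detected on more NS than MT arrays for 147 of the 312, on more MT arrays for 48 and on as many for 117. SUP showed the other order, with more MT arrays for 120, more NS arrays for 56 and as many for 136. The arrays' own detection rates, given above, move with these counts, and their part in them was not tested.

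The 312 circRNAs were dim. The median processed IP intensity of the 312 lay between 48.0 and 87.8 on the 8 arrays, while the dimmest detected circRNA lay between 39.2 and 63.8 and the other circRNAs with IP detected had medians between 383 and 645. In SUP the median of the 312 lay between 20.6 and 46.1, against 404 to 691 for the others. The normalized mean IP intensity had a median of 5.55 on the log2 scale (range 4.69 to 7.78), against 8.65 for the others. The normalized mean SUP intensity had a median of 5.28, against 9.37. None of their spots was saturated or marked as an outlier.

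The spread between rats was correspondingly wide. The median SD within a group was 0.51 (log2) in IP and 0.67 in SUP for the 312 circRNAs, against 0.21 and 0.30 for the others. On the array, with the rows cut into 4 equal bands, 30.1% of the 312 lay in the last band and 20.8% in the first, where the others had 24.7% and 25.1%, and 20.8% lay within 5 spots of the edge against 16.3%. The part of position in the detection calls was not tested.

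The m6A level, the IP intensity as a percentage of IP and SUP, follows from the rule and is given as a description. Its mean over the rats had a median of 58.2% over the 312 circRNAs (range 15.4% to 95.0%) and of 41.8% over the others. Where SUP is not detected, the level is a reading against background. The median log2(IP/SUP) was 0.52 for the 312, from -2.76 to 4.39, and -0.48 for the others. It was 1.1 for the 74 circRNAs with SUP on no array and 0.63 for the 150 with SUP on 1 to 3 arrays. For the 88 with SUP on at least 4 arrays it was -0.60, and 75 of these 88 had more signal in SUP than in IP. Which fraction was higher depended on the spike-in scaling. In the processed intensities before it, 42 of the 88 had more signal in SUP, and the median log2(IP/SUP) over the rats lay between 0.91 and 1.31 for the 312 and between 0.10 and 0.17 for the others. In each rat the median level of the 312 was above that of the others. It was 50.8%, 59.7%, 55.7% and 57.1% in MT1 to MT4 and 54.5%, 57.2%, 63.0% and 65.5% in NS1 to NS4, where the medians of the others lay between 36.4% and 46.7%.

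**Figure D3:**
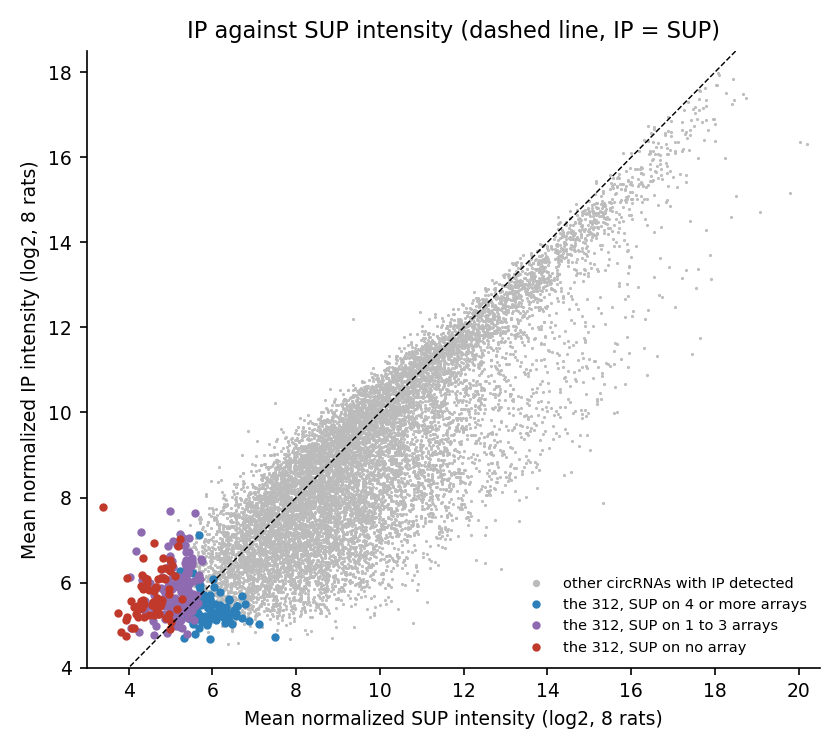
Mean normalized IP intensity against mean normalized SUP intensity (both log2, 8 rats), with the 312 circRNAs coloured by the number of arrays with SUP detected and the other 12581 circRNAs in grey. The 312 lie at the dim end, and under this scaling 75 of the 88 with SUP on at least 4 arrays lie below the dashed line of equal intensity.

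The probe ASCRPR013153 had the highest log2(IP/SUP) reading, with IP detected on all 8 arrays and SUP on none. Its log2 IP intensity was 7.83, 7.22, 7.01 and 8.44 in MT1 to MT4 and 8.57, 8.35, 7.11 and 7.72 in NS1 to NS4. Its log2 SUP intensity stayed between 3.16 and 3.81 in the 8 rats. Every rat had a much higher IP than SUP reading, and the m6A level ranged from 91.4% to 97.4%, with a mean of 95.0% ± 2.23 (SD, n = 8). Since SUP was not well above background, the ratio has only a bound, the mean IP over the dimmest detected SUP signal of each array. With spike-in scaling IP was at least 4.47-fold higher, and after loess and Aquantile normalization at least 7.08-fold. The bound thus depends on the scaling between the channels, and with IP always in Cy5 and no dye swap it is open to dye bias. The groups overlapped in IP, with an MT less NS difference of -0.31 ± 0.41 (log2, SE).

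Over all 18 circRNAs with IP on all 8 arrays and SUP on none, the same bound lay between 1.29-fold and 4.47-fold with spike-in scaling, with a median of 1.64-fold. After loess and Aquantile normalization it lay between 2.05-fold and 7.08-fold, with a median of 2.62-fold. Their m6A levels are readings against background, with a median of 75.6%. The brightest in IP after ASCRPR013153 were ASCRPR006381 (mean log2 IP 7.02, level 77.3%), ASCRPR003559 (6.93, 81.7%), ASCRPR005543 (6.87, 75.7%) and ASCRPR008594 (6.57, 81.6%). For ASCRPR006381 the log2 IP intensity was 7.41, 7.33, 6.93 and 7.23 in MT1 to MT4 and 6.90, 6.55, 7.10 and 6.73 in NS1 to NS4, so that the groups overlapped. For ASCRPR008594 it was 6.97, 6.47, 6.38 and 6.56 in the MT rats and 6.69, 6.63, 6.23 and 6.64 in the NS rats, which also overlapped.

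Other bright circRNAs were lowest in rat MT4. ASCRPR010100 had log2 IP intensities of 8.38, 8.98, 8.59 and 5.24 in MT1 to MT4 and 8.31, 7.34, 7.33 and 7.28 in NS1 to NS4. MT4 was far below every other rat and was the one array where its IP was not detected. Its mean level was 85.2% ± 6.47 (SD, n = 8), with SUP detected on 2 arrays, so that it is largely a reading against background. ASCRPR009937 showed the same form, with 8.26, 8.10, 7.08 and 3.92 in the MT rats, 7.93, 7.69, 7.49 and 7.11 in the NS rats and a mean level of 85.6% ± 12.3 (SD, n = 8). SUP of ASCRPR009937 was detected on 1 array. MT4 was also the lowest rat for ASCRPR009709 (3.05 against 6.40 to 8.27 in the others), ASCRPR010761 (4.62 against 6.62 to 8.81) and ASCRPR014031 (5.79 against 7.25 to 8.57).

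Whether the m6A quantity (normalized IP intensity) of these circRNAs differed with morphine was tested over all 12893 circRNAs with limma, at the study's criterion, a change of 1.5-fold or more with P under 0.05 before adjustment. The rule did not use the group labels, but a circRNA could pass its minimum of 4 arrays with IP through 1 group alone. For 3 circRNAs IP was detected on all 4 NS arrays and no MT array, and the reverse was found for none. Among the 312 circRNAs, 5 were raised and 7 lowered in the MT group, while over all circRNAs tested 1.65% were raised and 0.132% lowered. The 5 are 1.6% of the 312, close to the share over all circRNAs, and the 7 are 2.24%, against 17 lowered of all 12893. One of the 7, Brwd3, had IP on no MT array, and 6 remain without it. IP was detected on all 4 NS arrays for 5 of the 7 lowered and on all 4 MT arrays for 2 of the 5 raised. These met the minimum through the brighter group. None of the 12 raised or lowered had IP on all 4 arrays of the dimmer group. The rule may thus have favoured their differences, which are given below as descriptions. In either direction, 12 of the 312 (3.85%) met the criterion, against 1.78% of all. By the methods' t-test 9 of the 312 (2.88%) met it, against 1.14% of all. Their fitted standard errors were wide, with a median of 0.32 (log2) against 0.15 over all circRNAs. None of the 312, and none of all 12893, had an adjusted P (limma, Benjamini-Hochberg) under 0.05, where the smallest was 0.494 for the 312, and 23 of the 312 (7.37%) had an unadjusted P under 0.05, against 9.91% of all. All 4 MT rats lay above all 4 NS rats for 4 of the 312 and below them for 6, where 2.68% and 2.49% of all circRNAs lay so. The median log2 difference was -0.01 for the 312 and 0.01 for all.

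Rat MT4 and the normalization moved these counts. Without rat MT4, 36 of the 312 were raised, 11.5% against 11.8% of all circRNAs, and 13 were lowered, where 0.287% of all were. There 4 of the 312 (1.28%) had an adjusted P under 0.05 (limma), the smallest 0.046, against 2.46% of all. The values that the authors normalized gave 3 raised and 24 lowered of the 312, where 0.861% and 0.799% of all circRNAs were and the median of all was -0.15. The 75th percentile of each channel gave 5 and 11 (1.71% and 0.178% of all). Loess with Aquantile normalization gave 3 and 12 (1.62% and 0.279% of all).

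Host genes could be given for 7 of the 312 circRNAs, which are among the 20 that the study listed for the largest changes of m6A quantity in these same rats, so their direction is not independent evidence. The study's circRNAs were paired with probes by equal fold change and P in the authors' values and not by an annotation of the array, so each gene name below rests on that pairing. They come from Pds5a, Zmynd8, Map4, Aebp2, Brwd3, Pdk3 and Nmt1. Of these, Pds5a, Aebp2, Brwd3, Pdk3 and Nmt1 are among the 88 with SUP on at least 4 arrays. The mean log2(IP/SUP) with spike-in scaling was negative for Pds5a (-0.51), Pdk3 (-0.50), Brwd3 (-0.40) and Nmt1 (-0.31). It was 0.10 for Aebp2, 0.75 for Zmynd8 and 0.74 for Map4. Each name was matched in RefSeq (GRCr8). The array design was built on rn4, and no positions are given because the genome of that build was not used here. All 7 were lower in the MT group in mean IP intensity, and 5 met the criterion. With the median spot signal in place of the processed intensity and a normexp background correction (offset 50), all 7 differences turned to small positive values. The median difference of the 312 rose to 0.15 there and that of all circRNAs to 0.08. Of the 7, only Nmt1 (0.16) lay above that median of the 312.

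Printed here are the pairs of PCR primers that the study designed for Pds5a and Nmt1, since they define the molecules that it followed by PCR. By that PCR, on RNA of these same rats, the study reported lower m6A levels in the MT group for the circRNAs it tested. The primers are written in lower case, 5′ to 3′, with no part marked.
Pds5a forward: tcagtttgcctccccaatga
Pds5a reverse: tcgcaaggtcaaaggactgt
Nmt1 forward: gttcggcataggggacgg
Nmt1 reverse: ggctccagtgtcattggct

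Zmynd8, Brwd3, Aebp2 and Pds5a encode proteins of chromatin and are given first. Zmynd8 encodes a reader of acetylated and methylated histones. The IP intensity of its circRNA (mmu_circRNA_34955, probe ASCRPR005034) was 5.43, 5.31, 5.74 and 5.45 (log2) in MT1 to MT4 and 6.93, 6.42, 6.23 and 6.22 in NS1 to NS4. All MT rats lay below all NS rats, and IP was detected on 1 MT and all 4 NS arrays. The circRNA met the minimum of 4 arrays through the NS group, where it was the brighter. Its difference and lack of overlap are thus a description. The difference was -0.97 ± 0.18 (log2, SE), with an adjusted P of 0.494 by limma. Its SUP intensity overlapped between the groups (-0.32 ± 0.53).

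Brwd3 encodes a bromodomain protein with WD repeats. The IP intensity of its circRNA (rno_circRNA_018043, ASCRPR013909) was 5.12, 5.39, 4.68 and 5.32 in the MT rats, where it was detected on no array. In the NS rats it was 5.96, 5.73, 6.28 and 5.65, and it was detected on all 4 arrays. It was thus among the 312 through the NS group alone and had to be the brighter there, so that the difference of -0.78 ± 0.20 (log2, SE), its bound and the lack of overlap are a description. With the MT group not well above background, its IP was at least 1.54-fold higher in the NS group, where the bound is the NS mean over the dimmest detected signal of the MT arrays after loess and Aquantile normalization. Its SUP intensity was 7.02, 6.16, 5.87 and 5.52 in the MT rats and 6.42, 6.12, 5.37 and 4.86 in the NS rats, which overlapped, and SUP was detected on 3 MT and 2 NS arrays.

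Aebp2 encodes a cofactor of the Polycomb repressive complex PRC2. Its circRNA (rno_circRNA_011759, ASCRPR012807) had IP intensities of 4.23, 5.73, 5.17 and 4.81 in the MT rats and 5.91, 6.04, 5.79 and 5.49 in the NS rats. The groups overlapped through MT2, and the difference was -0.82 ± 0.30 (log2, SE; limma adjusted P = 0.494). Its SUP difference was of the same size (-0.79 ± 0.47), and log2(IP/SUP) differed by -0.03 ± 0.73. The IP difference no longer met the criterion without MT1 (-0.57), NS1 (-0.79), NS2 (-0.74) or NS3 (-0.83), or by the methods' t-test.

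Pds5a encodes a regulator of the cohesin ring, which holds sister chromatids together. Its circRNA (rno_circRNA_004940, ASCRPR012641) had IP intensities of 4.35, 4.80, 4.80 and 5.69 in the MT rats and 5.96, 6.23, 6.05 and 5.28 in the NS rats. MT4 was above NS4, so the groups overlapped, and IP was detected on 1 MT and 4 NS arrays. The circRNA met the minimum of 4 arrays through the NS group, so that its difference is a description. The difference was -0.97 ± 0.31 (log2, SE; limma adjusted P = 0.494), and it was -1.23 without MT4, where this circRNA was one of the 4 with an adjusted P under 0.05. After loess and Aquantile normalization the difference was -1.05 and did not meet the criterion.

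Map4 encodes a microtubule-associated protein. Its circRNA (rno_circRNA_015839, ASCRPR006564) had IP intensities of 5.26, 5.15, 5.03 and 4.18 in the MT rats and 5.40, 5.93, 5.85 and 5.89 in the NS rats, with no overlap. The difference was -0.86 ± 0.25 (log2, SE; limma adjusted P = 0.494). IP was detected on 1 MT and 3 NS arrays, just the minimum of the rule, so that this difference is a description. SUP was lower in the MT group as well, with 3.66, 4.06, 3.99 and 3.55 in the MT rats against 5.27, 4.79, 5.95 and 5.51 in the NS rats. The SUP groups did not overlap, and the difference was -1.57 ± 0.25 (log2, SE; limma adjusted P = 0.159). SUP was detected on no MT array and on 2 NS arrays, so that most of these values are readings near background. The m6A level read 67.8% ± 5.90 in MT and 56.4% ± 8.89 in NS rats (SD, n = 4 each), with overlap between the groups, and in the MT rats it is a reading near background in both fractions, with IP detected on 1 array.

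Pdk3 encodes a kinase that inhibits pyruvate dehydrogenase, the entry of pyruvate into mitochondrial oxidation. Its circRNA (mmu_circRNA_45606, ASCRPR009827) had IP intensities of 4.56, 5.95, 3.42 and 4.29 in the MT rats and 5.41, 5.70, 5.89 and 5.10 in the NS rats. MT2 was the highest of all rats, so the groups overlapped, and the difference of -0.97 ± 0.49 (log2, SE; limma adjusted P = 0.527) missed the criterion, which it met without MT2 (-1.44) and in the authors' values (-1.14). SUP went the opposite way, with 6.89, 6.63, 6.60 and 5.72 in the MT rats and 6.09, 5.86, 3.31 and 3.21 in the NS rats. NS3 and NS4 were the low rats there. IP was detected on 1 MT and 3 NS arrays and SUP on 3 MT and 2 NS arrays, with NS3 and NS4 not well above background, so that the level and the ratio rest in part on background readings. The m6A level was 23.0% ± 12.5 in MT and 62.5% ± 23.2 in NS rats (SD, n = 4 each), and the difference of the readings in log2(IP/SUP) was -2.81 ± 0.82 (SE; limma adjusted P = 0.295).

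Nmt1 encodes an N-myristoyltransferase, which adds a fatty acid to the start of proteins. Its circRNA (rno_circRNA_002718, ASCRPR010376) had IP intensities of 5.24, 5.28, 5.04 and 3.14 in the MT rats and 5.81, 5.63, 5.45 and 5.56 in the NS rats. No MT array and all 4 NS arrays were detected, and the groups did not overlap, although the difference of -0.93 ± 0.46 (log2, SE) missed the criterion. It was -0.42 without rat MT4, and it met the criterion with the 75th percentile of each channel (-0.97), loess and Aquantile normalization (-1.04) and the authors' values (-1.10). Its IP was at least 1.32-fold higher in the NS group by the bound described for Brwd3, and it too was among the 312 through the NS group alone, so that these values are a description. SUP overlapped, and SUP was detected on 2 arrays of each group.

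**Figure D4:**
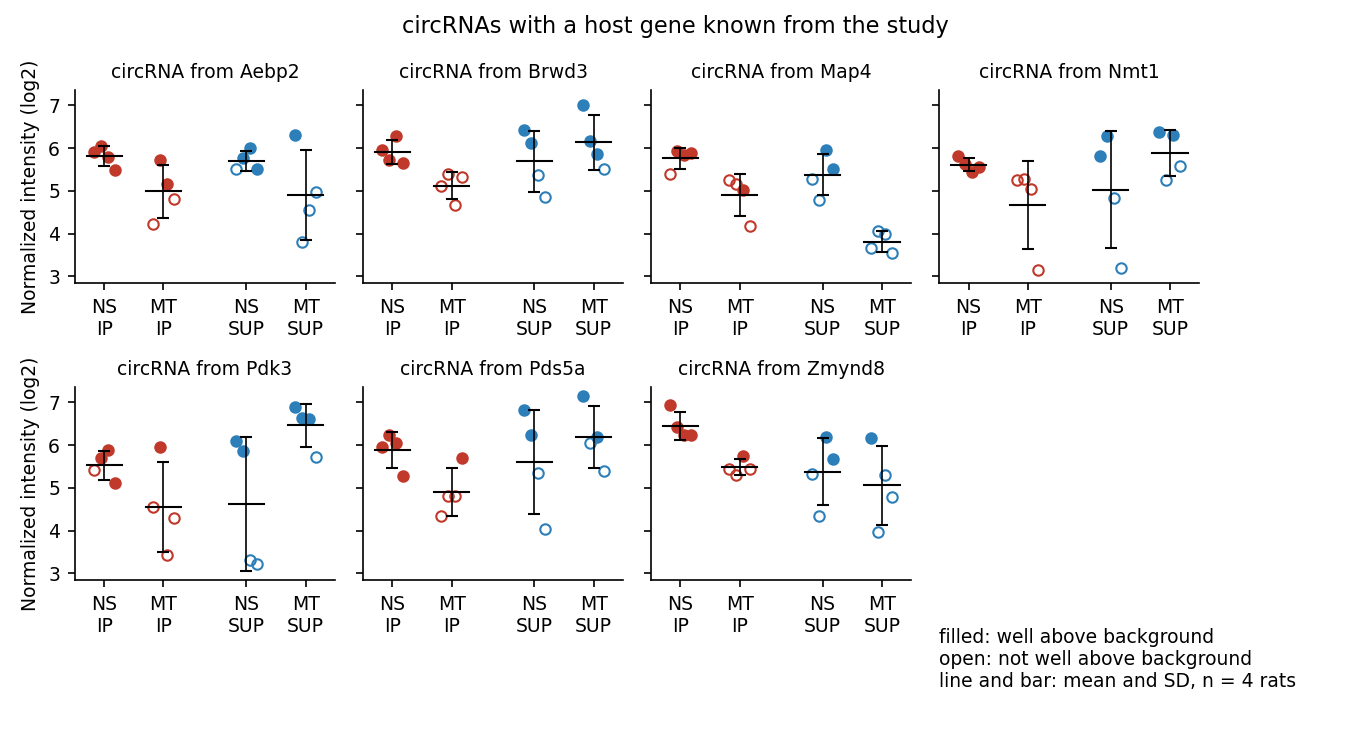
Normalized intensity (log2) of the 7 circRNAs with a known host gene in IP (red) and SUP (blue), by group, with 1 point per rat, the mean (line) and the SD (bar, n = 4). Filled points are well above background. The NS points lie above the MT points in IP for Zmynd8, Brwd3, Map4 and Nmt1 without overlap, a direction that turned under the combined median signal and normexp setting, and in SUP for Map4.

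Besides Brwd3 and Nmt1, 1 more circRNA, ASCRPR012053, had IP detected on all 4 NS arrays and no MT array, and so passed the rule through the NS group alone. The reverse was found for no circRNA. Its IP was 5.08, 5.52, 4.97 and 5.41 in the MT rats and 6.08, 5.75, 5.37 and 5.72 in the NS rats, with a bound, again a description, of at least 1.33-fold in the NS group. Its groups overlapped through NS3, and its log2 difference of -0.48 was under the fold criterion.

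The other lowered circRNAs with no known host gene were ASCRPR000314 and ASCRPR013396. ASCRPR000314 had IP intensities of 4.79, 4.93, 5.05 and 4.73 in the MT rats and 5.53, 6.24, 5.13 and 5.57 in the NS rats, with no overlap, and SUP was detected on no array. Its difference was -0.74 ± 0.22 (log2, SE; limma adjusted P = 0.494), and it fell under the fold criterion without NS2 (-0.54). ASCRPR013396 was lower by -0.68 ± 0.28 (log2, SE; limma adjusted P = 0.500).

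The 5 raised circRNAs had no host gene known here. ASCRPR002908, ASCRPR007868 and ASCRPR009864 had IP on 3 MT arrays and 1 NS array, just the minimum of the rule, so that their differences are descriptions. ASCRPR002908 had IP intensities of 5.34, 5.80, 5.57 and 5.54 in the MT rats and 4.84, 4.54, 5.11 and 4.60 in the NS rats, with no overlap. Its difference was 0.79 ± 0.15 (log2, SE; limma adjusted P = 0.494). ASCRPR004722, at 6.05, 5.57, 5.53 and 5.74 in the MT rats and 4.70, 5.15, 4.50 and 5.52 in the NS rats, did not overlap either, with a difference of 0.75 ± 0.23. It did not meet the criterion with loess and Aquantile normalization (0.65) or in the authors' values (0.59). The groups of the remaining 3 overlapped. ASCRPR007868 differed by 1.34 ± 0.56, ASCRPR009864 by 1.05 ± 0.35 and ASCRPR008588 by 0.68 ± 0.24. ASCRPR007868 did not meet the criterion without MT1, MT2, MT3, NS1, NS2 or NS4 (0.92 to 1.40) or by the methods' t-test, and ASCRPR008588 did not meet it without MT1 (0.61), MT2 (0.66), NS2 (0.53) or NS4 (0.60). ASCRPR008588 also missed it with loess and Aquantile normalization (0.59) and in the authors' values (0.51), and ASCRPR009864 with the former (0.96). ASCRPR007868 was also the circRNA with the lowest log2(IP/SUP) of the 312, -2.76, and its SUP was detected on 7 arrays.

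In SUP, 34 of the 312 circRNAs were raised and 6 lowered in the MT group by the same criterion, where 15.3% of all circRNAs were raised and 0.155% lowered. The 34 are 10.9% of the 312, a smaller share than over all circRNAs. The 6 stand against 20 lowered of all 12893. All MT rats lay above all NS rats for 10 of the 312 and below them for 6, where 10.8% and 1.09% of all circRNAs lay so. The median log2 difference was 0.37 for the 312 and 0.26 for all, and the shift of all circRNAs depended on the scaling. Scaling by the 75th percentile of each channel moved it to -0.03 and gave 23 raised and 19 lowered of the 312, where 8.27% and 2.44% of all were. Loess with Aquantile normalization moved it to -0.08 and gave 19 and 29 of the 312, where 903 and 508 of all 12893 were. Without rat MT1, 13 of the 312 were raised and 17 lowered, so that the larger direction turned, where 7.63% and 0.442% of all were. The methods' t-test gave 17 raised and 5 lowered of the 312, where 9.76% and 0.124% of all were. No circRNA of the 312 or of all had an adjusted P under 0.05 (limma, smallest 0.159), and 45 of the 312 (14.4%) had an unadjusted P under 0.05, against 22.7% of all.

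Many of the differences in SUP were between readings near background. Of the 34 raised, 19 were detected on no NS array, and 6 on no MT array. Of the 6 lowered, 5 were detected on no MT array, and 3 of these on no NS array. Beside Map4, ASCRPR005140 (named for its value) was lowered in SUP, which was detected on 0 MT and 3 NS arrays, with a difference of the readings of -1.48 ± 0.34 (log2, SE; limma adjusted P = 0.159). Its IP was detected on all 8 arrays and differed by -0.23 ± 0.32.

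For the IP/SUP ratio, 37 of the 312 circRNAs were lowered and 5 raised in the MT group, where 8.67% of all circRNAs were lowered and 0.147% raised. The 37 are 11.9% and the 5 are 1.6% of the 312. All MT rats lay below all NS rats for 11 of the 312 and above them for 2, where 8.82% and 0.5% of all lay so. The median difference in log2(IP/SUP) was -0.37 for the 312 and -0.24 for all. With the 75th percentile of each channel the median of all was 0.02, with 20 of the 312 lowered and 10 raised (3.16% and 1.38% of all). With loess and Aquantile normalization it was 0.07, with 18 and 15 (322 and 289 of all 12893). Without rat MT1, 20 of the 312 were lowered and 6 raised, where 5.3% and 0.357% of all were, and the methods' t-test gave 19 and 3 of the 312, where 5.67% and 0.101% of all were. No adjusted P was under 0.05 (limma, smallest 0.277), and 44 of the 312 (14.1%) had an unadjusted P under 0.05, against 14.6% of all. The lowered circRNAs included Pdk3, Nmt1, Brwd3 (-1.23 ± 0.45) and Pds5a (-1.56 ± 0.67), and the raised ones Map4 (0.71 ± 0.30), all in log2 with the SE. Nmt1 and Brwd3 were in the set through high IP in the NS group alone, which favours a lower ratio in the MT group, and 35 lowered remain without them. Pds5a, with IP on 1 MT and 4 NS arrays, also met the minimum through the NS group.

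None of the 18 circRNAs with IP on all 8 arrays and SUP on none met the criterion in IP, where 1.78% of all circRNAs did. With 18 circRNAs this count cannot be told apart from that share. Their log2 differences in IP lay between -0.43 and 0.41 with a median of -0.05. ASCRPR005719 was raised in SUP by 1.00 ± 0.34 and ASCRPR008594 lowered by -0.96 ± 0.19 (log2, SE; both named for their values), although SUP of both was not well above background on any array. Their log2(IP/SUP) met the criterion as well, with -1.34 ± 0.30 for ASCRPR005719 and 1.01 ± 0.21 for ASCRPR008594, and the groups did not overlap for either. Over all circRNAs 15.3% were raised and 0.155% lowered in SUP, and 0.147% raised and 8.67% lowered in the ratio.

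**Figure D5:**
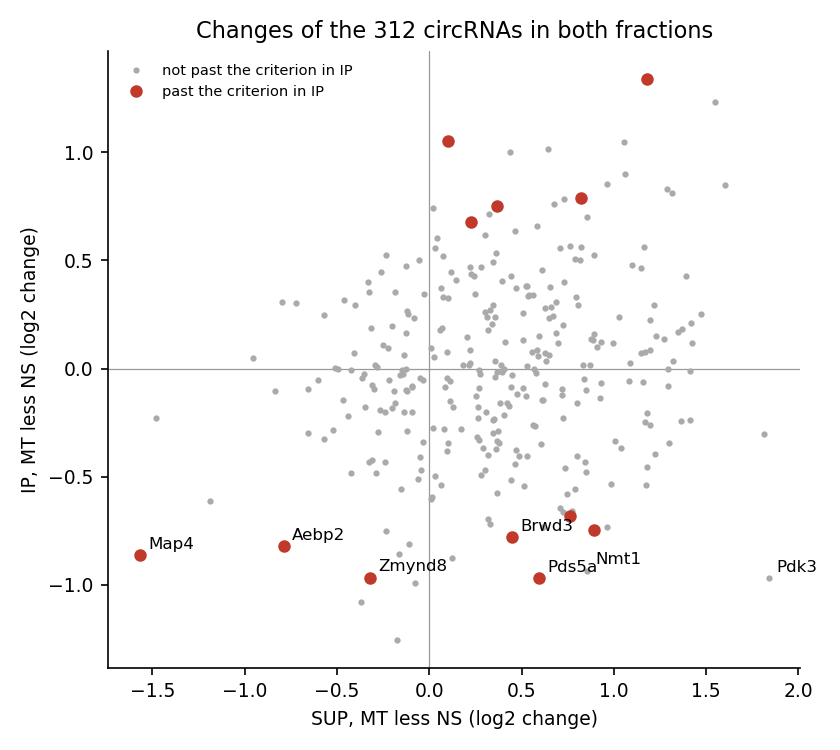
Difference between MT and NS (log2) in IP against that in SUP for the 312 circRNAs, with the 12 that met the criterion in IP in red and the 7 with a known host gene named. The SUP differences are mostly to the right of 0 under spike-in scaling (229 of the 312, 73.4%, against 74.2% of all circRNAs). The IP differences lie on both sides (148 above 0, 47.4%, against 52.3% of all), and Map4 was lower in both fractions.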

How the data were processed

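One array per rat carried IP (Cy5) and SUP (Cy3), and no dye was swapped. The authors deposited scanner intensities from Agilent Feature Extraction 11.0.1.1, with a processed intensity (background subtracted, dye normalized) and flags of 0 or 1 for each spot. A second deposited table holds log2 values normalized by the authors to spike-in RNA. The IP and SUP scanner files of a rat held the same scan, from which the red and the green columns were taken. Here the log2 processed intensity minus the mean log2 of 102 spike-in probes of the array and channel was used, plus 1 constant (9.99). It is not known whether the authors averaged the same probes. All arrays shared 1 slide and 1 scan, with MT in one row and NS in the other, so that row and group cannot be told apart. Each of the 14145 circRNAs had 1 spot, and the number of rats limits the precision.

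The limma package (3.58.1, R 4.3.3) compared groups of 4 rats on log2 IP, log2 SUP and log2(IP/SUP), over 12893 circRNAs with Benjamini-Hochberg adjustment. Tables and plots were made with Python 3.11.15, pandas 2.3.3, numpy 2.4.6 and matplotlib 3.10.9, and the test was tested on simulated data. The members of the set, the lists and the tests were chosen with earlier results of these data known. Named circRNAs are the 5 largest IP changes in each direction past the criterion, up to 6 past it with separate groups, the 5 brightest with IP on 8 and SUP on 0 arrays, the 5 brightest and the 5 with the highest IP/SUP of all, those of the study's table, 1 on each side of the threshold, and those said to be named for their values. The study's circRNAs were paired with probes by matching fold change and P from the deposited table, so those carry no evidence here. Lists of host genes could not be used, since host genes were known for 7 circRNAs alone.

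Alternatives were the median signal with normexp (offset 50), the 75th percentile, loess with Aquantile, the authors' log2 values, all probes without a detection filter, outlier spots kept, the methods' t-test, a replicate block, other detection rules, and leaving out each rat. The bound of IP over SUP with spike-in scaling was added after the data were seen.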

Additional observations from a re-analysis of the deposited data

Results flagged for a closer look

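In 12 of 114 groups of 4 rats, over the circRNAs named by the stated rule in both fractions and the counts and medians of each rat, 1 rat lay far from the other 3 for the spread of the group, where chance gives about 1 in 20 for independent groups, which these are not, since they share rats and some circRNAs were named for extreme values. In IP, MT4 was the low rat for ASCRPR010100 (log2 intensity 5.24, others 8.38 to 8.98), ASCRPR014031 (5.79, others 8.29 to 8.57), ASCRPR007868 (4.17, others 5.73 to 5.96) and Nmt1 (ASCRPR010376; 3.14, others 5.04 to 5.28). NS1 was the high rat for ASCRPR010100 (8.31, others 7.28 to 7.34) and ASCRPR014031 (8.15, others 7.25 to 7.32), and the low rat for Map4 (ASCRPR006564; 5.40, others 5.85 to 5.93). NS3 was the low rat for ASCRPR008594 in IP (6.23, others 6.63 to 6.69) and for ASCRPR002908 in SUP (4.17, others 5.23 to 5.43). In SUP, MT1 was the high rat for ASCRPR009709 (5.97, others 3.55 to 3.74), MT2 the low rat for ASCRPR009864 (3.80, others 5.52 to 5.75) and NS4 the low rat for ASCRPR009937 (3.11, others 4.37 to 4.62).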

How the results depend on the processing

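The set of 312 circRNAs depended on the detection rule. It became 112, of which 4 were shared, with the mark "positive and significant" in place of well above background, 18 with IP on all 8 arrays and SUP on none, and between 274 (without NS3) and 355 (without MT1) when a rat was left out. Leaving out a rat kept 244 (without NS3) to 298 (without MT4) of the 312. A minimum of 3 arrays gave 291, of which 214 were shared, and a minimum of 5 gave 338, of which 225 were shared. Requiring SUP alone on fewer than 4 arrays, a rule added after the data were seen, left 224. Percentages below are the shares of all 12893 circRNAs called under the same setting. In IP, 12 of the 312 met the criterion (1.78% of all), 0 with the median spot signal and normexp together (0.225% of all), 27 in the deposited values (10 of the 12 among them, 1.66% of all), and 11 (without MT1, 8 of the 12, 0.993% of all) to 49 (without MT4, all 12, 12.1% of all) when a rat was left out. In SUP, 40 of the 312 (15.5% of all) became 0 with the median spot signal and normexp (5.78% of all), 22 with the methods' t-test (9.88% of all), 85 with a replicate block (24.2% of all), and 26 (without NS3, 7.54% of all, or NS4, 8.08%) to 89 (without NS1, 27.5%). In the IP/SUP ratio, 42 of the 312 (8.82% of all) became 0 with the median spot signal and normexp (2.19% of all), 22 with the methods' t-test (5.77% of all), and 26 (without MT1, 5.65% of all) to 58 (without NS1, 12.4%). Without NS1, NS3 or NS4 the count in SUP thus moved by over 1.5 times, and without MT1 its split of 34 raised and 6 lowered became 13 and 17. With the median spot signal and normexp the IP differences turned to 0.10 for ASCRPR000314, 0.071 for Zmynd8, 0.10 for Map4, 0.079 for Pdk3, 0.16 for Nmt1, 0.082 for Pds5a, 0.039 for Aebp2 and 0.068 for Brwd3 (log2). That setting changes the spot signal and the background correction at once. It also moved the median IP difference of the 312 to 0.15 and that of all circRNAs to 0.08, and the cause was not tested. Whether the replicate numbers pair the rats was not settled. Same-numbered rats correlated in IP by 0.45, -0.01, -0.02 and 0.43 and in SUP by 0.61, -0.20, -0.10 and 0.55. MT1 and MT4 correlated best with the NS rat of their own number in both fractions, and MT2 and MT3 with other numbers. The replicate block gave 18 calls in IP (2.64% of all), and the main fits used no block. The median log2(IP/SUP) of the 312 less that of the others was 1.01, and 0.95 to 1.01 when a rat was left out. Signals near background limit all of these values.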
